A study of Mus musculus with 32 samples.

Results

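The adrenergic receptor genes and cAMP-controlling genes of fat cells, 9 in all, were followed in Gpr146-deficient mice across the liver, 2 white fat depots (eWAT, the epididymal, and iWAT, the inguinal one) and brown fat (BAT). They were taken by name from a list: the adrenergic receptors *Adrb1*, *Adrb3*, *Adra1a* and *Adra2a*, the inhibitory receptors *Adora1* and *Hcar2*, the phosphodiesterases *Pde3b* and *Pde4b*, and the protein kinase A (PKA) subunit gene *Prkar2b*. All 9 were present among the 24646 genes of every tissue table, 8 under their current symbol and 1, *Hcar2*, under the older symbol *Niacr1*. The mice were male, on the C57BL/6J background and 20 weeks old. Both genotypes, whole-body *Gpr146* knockouts and their wild-type littermates, had eaten a high-fat diet (HFD) for 3 months and were fasted overnight. No mouse on chow, no fed mouse and no injected adrenergic drug was part of the comparison. The paper reports that male knockouts on this diet weighed less and had less fat mass than wild-type littermates, so the genotypes also differed in adiposity. Each genotype had 4 mice, with 1 array per mouse and tissue and 32 arrays in all. *Gpr146* encodes a G protein-coupled receptor, and the knockout was a germline deletion made with CRISPR/Cas9, so the loss was not limited to 1 cell type or tissue.

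In fat cells, noradrenaline from sympathetic nerves acts on beta receptors, which couple to the stimulatory G protein Gs and raise cAMP through adenylyl cyclase. cAMP activates PKA, which drives lipolysis in white fat and, in brown fat, heat production and the transcription of genes of the thermogenic program. Receptors coupled to the inhibitory G protein Gi lower cAMP, phosphodiesterases break it down, and the regulatory subunits of PKA hold the catalytic subunits inactive until cAMP binds.

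The values were log2 expression values, 1 per gene and array, and a difference of 1 is a change of 2-fold. Differences are given as knockout minus wild type with the standard error (SE), from limma, which fits a linear model per gene and moderates the variances across genes. A gene was called at an adjusted p (Benjamini-Hochberg over all genes of the tissue) below 0.05. *Gpr146* itself was lower in all 4 tissues, with differences of -1.77 (liver), -1.53 (eWAT), -1.55 (iWAT) and -1.16 (BAT), and no knockout array reached the lowest wild-type array of its tissue. Its adjusted p was 6.55e-06 in liver and 0.00823 in eWAT, but 0.221 in iWAT and 0.0727 in BAT. Even the deleted gene was thus not called in iWAT or BAT. In the fat of wild-type mouse 1, *C130050O18Rik*, a gene beside *Gpr146* that was higher in all knockout tissues, lay between the genotypes. In iWAT it was 6.98, against 3.74 to 4.29 in the other wild-type and 7.68 to 7.96 in the knockout arrays. It was 6.45 in eWAT and 5.85 in BAT of this mouse number, but 3.77 in liver, where wild-type arrays spanned 3.54 to 3.94. *Gpr146* of wild-type 1 was the lowest wild-type value in eWAT (5.32), iWAT (5.37), BAT (5.10) and, by little, liver (6.17). The cause was not tested. *Adrb3*, *Adrb1* and *Pde3b* are also given without this mouse within each fat depot and for eWAT against BAT. Liver and BAT matched their labels by markers. The mean of 8 hepatocyte genes was 10.16 to 10.58 in liver, and that of 8 brown adipocyte genes 8.65 to 9.45 in BAT. The mean of 10 adipocyte genes was 8.59 to 9.60 in eWAT and 9.09 to 9.70 in iWAT. These ranges overlap and do not tell the white depots apart. Some arrays carried RNA of other tissues. B cell genes (8 genes) had a mean of 5 or more in 4 iWAT arrays, wild-type 1 and 2 and knockout 2 and 4, and skeletal muscle genes (9 genes) in 3 BAT arrays, wild-type 2 and 3 and knockout 2. In bulk tissue, fewer cells of a type and less RNA per cell cannot be told apart.

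In wild-type mice, 8 of the 9 genes had their highest mean in BAT. Since the tissues had been normalized separately, levels across tissues are given as log2 units above the median of the same array, with SD over 4 arrays. The BAT range overlapped that of the next tissue for *Adrb3*, *Adra2a* and *Pde4b* (0.53 ± 0.40 in BAT, 0.37 ± 0.23 in eWAT). The order depends on this scale: as deposited, *Pde4b* averaged 4.01 in wild-type iWAT and 3.36 in BAT. *Adrb3*, the beta receptor most characteristic of rodent fat cells, stood 3.78 ± 0.43 above the median in BAT, 2.93 ± 0.40 in eWAT, 2.46 ± 0.82 in iWAT and 0.88 ± 0.11 in liver. The ranges of BAT and eWAT overlapped, as did those of eWAT and iWAT, whereas liver lay below all fat arrays. *Adrb1*, the beta 1 receptor, stood 3.75 ± 0.47 above the median in BAT and apart from 1.65 ± 0.62 in iWAT, and its ranges in iWAT, eWAT (0.56 ± 0.44) and liver (0.24 ± 0.18) overlapped one after the other. *Adra1a*, a receptor that couples to calcium rather than to cAMP, was above the median only in BAT (2.75 ± 0.06), and the mean of *Adra2a*, a Gi-coupled receptor, lay below it in all 4 tissues. *Prkar2b*, which encodes the main PKA regulatory subunit of fat cells, ranged from 7.73 ± 0.03 in BAT to -1.04 ± 0.08 in liver, with eWAT (6.18 ± 0.10) and iWAT (5.75 ± 0.44) overlapping. *Hcar2*, the niacin and ketone body receptor, was the exception, at 1.21 ± 0.75 in iWAT, 0.99 ± 0.16 in eWAT and 0.20 ± 0.39 in BAT.

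**Figure D1:**
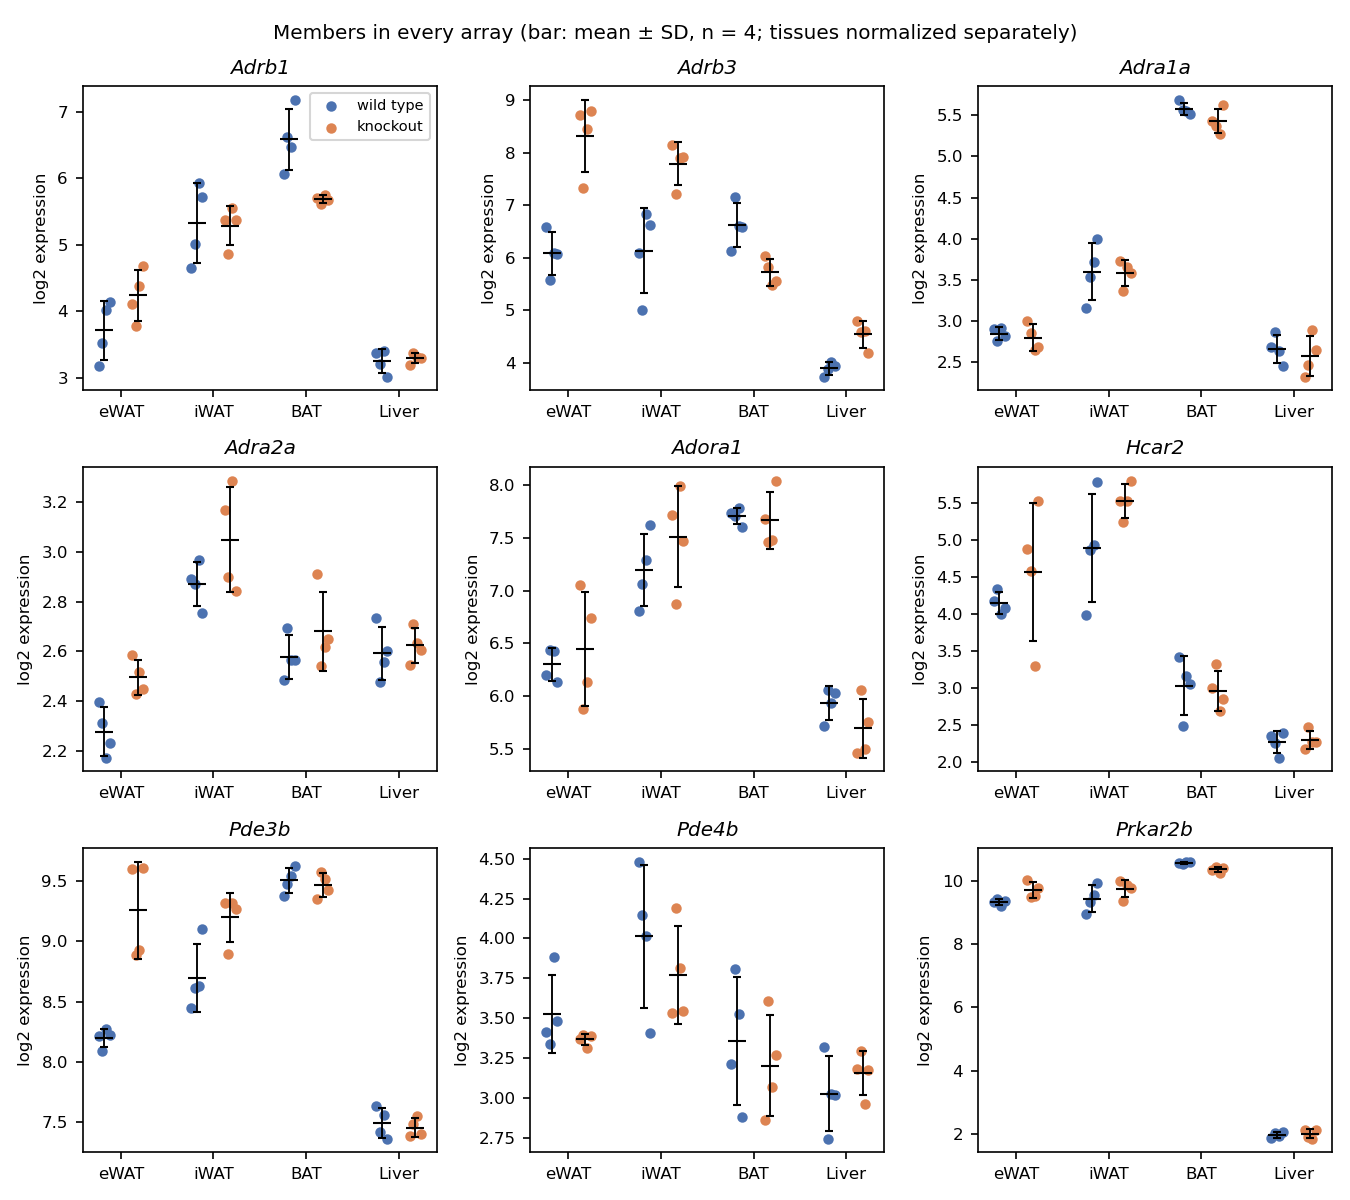
Log2 expression (vertical axis) of the 9 genes in each tissue (horizontal axis). Points are single arrays, blue for wild type and orange for knockout, and bars are the mean and SD of 4 arrays. *Adrb3* of the knockouts lies above the wild type in eWAT, iWAT and liver and below it in BAT.

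*Adrb3* was higher in both white depots and in liver of the knockouts and lower in their BAT. In eWAT it measured 6.58, 5.58, 6.10 and 6.07 in the wild-type mice and 8.72, 7.32, 8.45 and 8.79 in the knockouts, so that the lowest knockout array exceeded the highest wild-type array. Its mean rose by 2.24 (SE 0.32, adjusted p = 0.00823), or 4.72-fold, and by 2.40 without wild-type 1 (adjusted p = 0.0188). Across all genes, 15.2% were called in eWAT and 4.57% were called as higher, and *Adrb3* and *Pde3b* were the 2 of 9 members called, both higher. Adipocyte markers moved in the same direction there: 9 of 10 were called higher, with a list mean of 8.59 to 8.97 in wild-type and 9.25 to 9.60 in knockout arrays, and the remaining one, *Lep* (leptin), fell by 0.98 (adjusted p = 0.0137). Of 10 macrophage markers 9 were called lower, and their list mean was 8.28 to 8.53 in wild type against 5.67 to 8.01 in knockouts, with knockout 2 the highest of the knockouts and also the lowest of them for *Adrb3*. Of 8 progenitor and mesothelial markers 6 were called lower, with a list mean of 6.71 to 7.35 in wild type and 5.90 to 6.59 in knockouts. The list mean of 8 hepatocyte genes lay higher in knockouts, at 4.61 to 5.11 against 3.82 to 4.46, with 2 genes called. Of these 8 genes, 5 had a mean below the table median in eWAT, so few genes carry that list mean. The part of these markers in the result was not tested. The adipocyte genes *Adipoq*, *Plin1* and *Fabp4* rose by 0.51, 0.65 and 0.24, whereas *Cfd*, the complement factor D gene, rose by 2.32.

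In iWAT, *Adrb3* measured 6.09, 5.01, 6.83 and 6.62 in wild-type mice and 8.14, 7.21, 7.90 and 7.92 in knockouts. All 4 knockout arrays again lay above all wild-type arrays, with a difference of 1.66 (SE 0.37, 95% interval 0.81 to 2.50), but the adjusted p was 0.221 (1.64 and 0.350 without wild-type 1). By limma no gene at all was called in this depot (0%), although 15.4% of all genes and 2 of the 9 members, *Adrb3* and *Pde3b*, had an unadjusted p below 0.05. The hepatocyte list mean was 4.23 to 4.96 in wild type and 4.98 to 5.23 in knockouts here, with 5 of its 8 genes below the table median. The macrophage list mean was 6.17 to 7.06 in wild type and 5.48 to 6.27 in knockouts. All 10 of its genes had negative differences, 5 with an unadjusted p below 0.05 by limma. For the adipocyte list it was 9.09 to 9.57 against 9.27 to 9.70, with 8 of 10 genes positive, 4 of the 10 with such a p. For the brown adipocyte list it was 4.11 to 4.77 against 4.39 to 5.16. The part of these lists in the result was not tested. Groups did not overlap for 8.15% of all genes and for 1 of the 9 members. Without the 4 arrays rich in B cell genes, which leaves 2 arrays per genotype, the difference was 1.30 (adjusted p = 0.0142), and 1 member and 916 genes of all were called.

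In BAT the order was turned. *Adrb3* measured 6.13, 7.15, 6.61 and 6.58 in wild-type mice and 6.04, 5.82, 5.48 and 5.56 in knockouts, so that every knockout array lay below every wild-type array, though the gap between wild-type 1 and knockout 1 was small. The difference was -0.89 (SE 0.20, 95% interval -1.34 to -0.45, adjusted p = 0.130), which did not pass the threshold, nor did -1.06 without wild-type 1 (adjusted p = 0.0549). Only 0.0284% of all genes, 7 in number, and none of the members were called in BAT by limma. Without the 3 muscle-rich arrays the *Adrb3* difference was -0.66 (adjusted p = 0.646). The list mean of 8 brown adipocyte markers also lay lower in knockout BAT, at 8.65 to 8.85 against 9.16 to 9.45, with none of its genes called, as did that of 7 smooth muscle and pericyte markers (4.96 to 5.10 against 5.11 to 5.40). The part of these lists in the result was not tested. *Ucp1*, the uncoupling protein of brown fat, differed by -0.21 (adjusted p = 0.448).

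In liver, *Adrb3* was close to the median of the table (3.02) and measured 3.74, 3.88, 4.02 and 3.93 in wild-type mice and 4.80, 4.59, 4.60 and 4.19 in knockouts. It rose by 0.65 (SE 0.12, adjusted p = 0.0427), the 1 member called in a tissue in which 0.661% of all genes were called and 0.162% were called as higher. This call was lost when any 1 of 7 of the 8 arrays was left out, with an adjusted p of up to 0.112, and held only without knockout 4 (adjusted p = 0.0171). Of the 10 adipocyte genes only 4 were below the table median in liver, among them *Adipoq* (2.41 in wild type, 2.27 in knockouts) and *Lep* (1.78 and 1.66). The mean of the adipocyte list differed by -0.57 (exact permutation p = 0.0571). Of its 10 genes 2 were called, both lower, *Cfd* (-1.12) and *Cidec* (-2.08). Their part in the result was not tested. The remaining 8 members differed in liver by -0.24 to 0.13, and none was called.

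**Figure D2:**
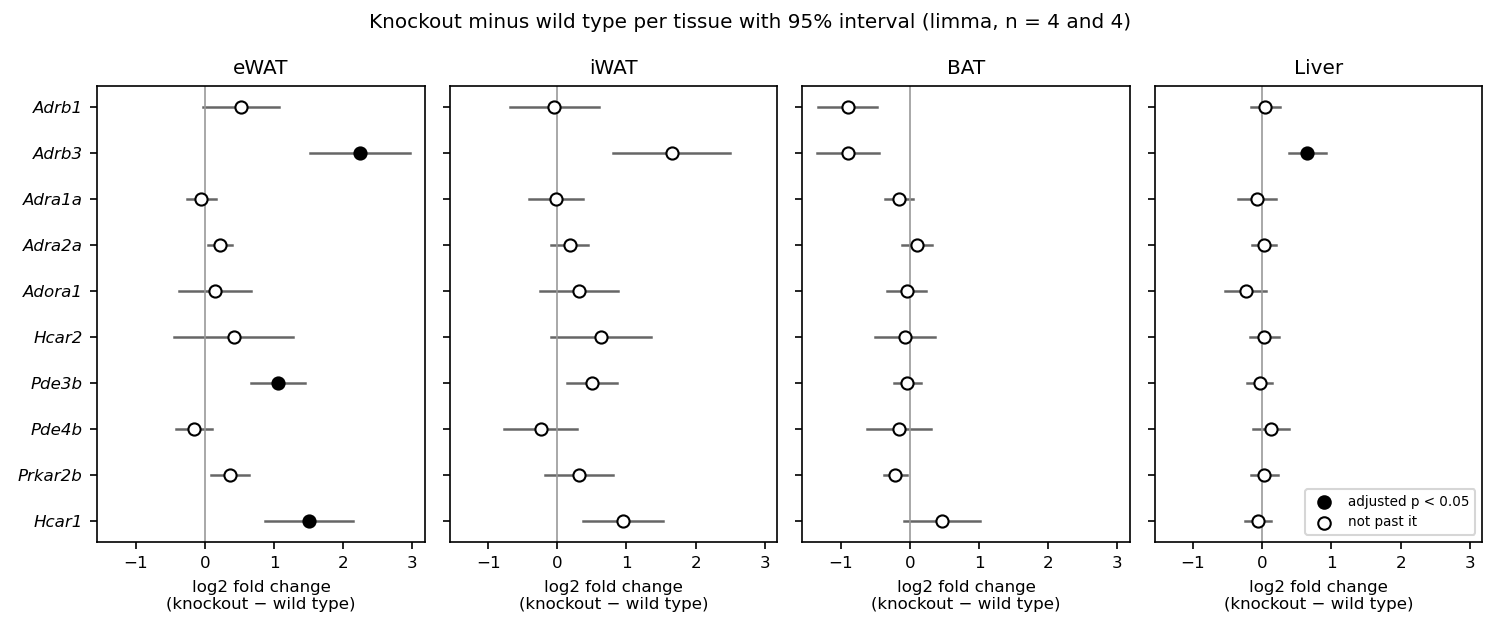
Log2 fold change (horizontal axis, knockout minus wild type) of the 9 genes and of *Hcar1* in the 4 tissues, with 95% intervals from limma. Filled points passed an adjusted p of 0.05: *Adrb3*, *Pde3b* and *Hcar1* in eWAT and *Adrb3* in liver.

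For *Adrb1*, every knockout BAT array lay below every wild-type array, short of the threshold. Its promoter is shown for that reason, and because the cAMP response element (CRE) is the sequence through which cAMP acts on many promoters. TGACG, the core of that element, is in capitals. The sequence is from RefSeq (GRCm38.p6, chr19:56721867-56722166, + strand, 250 bases before to 50 bases after the start of the gene).
Adrb1: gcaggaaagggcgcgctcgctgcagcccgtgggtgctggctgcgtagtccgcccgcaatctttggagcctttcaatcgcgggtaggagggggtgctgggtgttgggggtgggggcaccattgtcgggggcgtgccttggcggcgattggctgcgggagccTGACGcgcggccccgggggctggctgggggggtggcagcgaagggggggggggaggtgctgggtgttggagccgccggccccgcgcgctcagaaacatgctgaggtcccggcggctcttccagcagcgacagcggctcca
The full palindromic element TGACGTCA was absent from this window. Of 32851 promoters of the same length, 20.8% held TGACG on either strand and 1.79% held TGACGTCA, which contains TGACG on both strands. A promoter was at hand for 5 of the 9 genes: *Adrb1*, *Adra2a* and *Pde4b* held TGACG and none held the full element. A match is a description of these letters and not evidence of a bound site.

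In BAT, *Adrb1* measured 6.06, 6.62, 6.47 and 7.18 in wild-type mice and 5.71, 5.62, 5.75 and 5.68 in knockouts. The knockout arrays lay within a narrow band below all wild-type arrays, and the difference was -0.90 (SE 0.19, adjusted p = 0.125), or 1.86-fold lower. Without wild-type 1, the lowest of the wild-type arrays, the difference was -1.07 and passed the threshold (adjusted p = 0.0365). In eWAT *Adrb1* measured 3.18, 3.52, 4.02 and 4.15 in wild type and 4.12, 3.78, 4.38 and 4.68 in knockouts, which overlap, and the difference of 0.53 (SE 0.24) was not called (adjusted p = 0.184), nor was 0.35 without wild-type 1 (adjusted p = 0.385). In iWAT the difference was -0.04 (95% interval -0.68 to 0.60), which leaves room for changes in either direction, and -0.27 without wild-type 1 (adjusted p = 0.677).

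The alpha receptors differed less. *Adra2a* was dim in all 4 tissues, its mean lying below the table median, and in eWAT it measured 2.17 to 2.40 in wild type and 2.43 to 2.59 in knockouts, apart but by only 0.22 (adjusted p = 0.0950). *Adra1a* was dim in liver, eWAT and iWAT. In BAT, where it was measured well above the median, it was 5.52 to 5.69 in wild type and 5.28 to 5.62 in knockouts, with a difference of -0.16 (adjusted p = 0.538).

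The inhibitory receptors among the 9 were not called in any tissue. *Adora1*, the A1 adenosine receptor, which restrains lipolysis, had differences of 0.15 (eWAT), 0.32 (iWAT) and -0.04 (BAT). *Hcar2* measured 4.17, 4.33, 4.00 and 4.08 in wild-type eWAT and 4.87, 4.57, 3.30 and 5.52 in knockout eWAT, where knockout 3 lay below all wild-type arrays and the other 3 above them. The difference was 0.42 (SE 0.38, adjusted p = 0.502), 0.84 without knockout 3 (adjusted p = 0.0353) and 0.10 without knockout 4 (adjusted p = 0.877). The B cell list mean of knockout 3 was 4.00, against 2.64 to 2.87 in the other eWAT arrays, and its part in the value was not tested. *Hcar1*, the lactate receptor, also Gi-coupled and taken from the wider pathway lists, measured 7.02, 5.92, 6.32 and 6.29 in wild-type eWAT and 8.36, 7.67, 7.26 and 8.28 in knockouts. It rose by 1.50 (SE 0.28, adjusted p = 0.0122) there, and its differences of 0.95 in iWAT (adjusted p = 0.221) and 0.47 in BAT (adjusted p = 0.472) were not called.

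*Pde3b*, which encodes the phosphodiesterase through which insulin lowers cAMP in fat cells, was higher in eWAT of the knockouts. It measured 8.21, 8.09, 8.27 and 8.22 in wild-type mice and 9.60, 8.89, 8.93 and 9.61 in knockouts, and rose by 1.06 (SE 0.17, adjusted p = 0.00971), or 2.08-fold (1.06 without wild-type 1, adjusted p = 0.0264). The wild-type arrays lay within a narrow band, and the knockouts fell into a higher and a lower pair, all above the wild type. In iWAT it measured 8.45, 8.61, 8.63 and 9.10 in wild type and 9.31, 8.89, 9.32 and 9.26 in knockouts, with 1 knockout array inside the wild-type range and a difference of 0.50 (SE 0.16, adjusted p = 0.240), or 0.42 without wild-type 1 (adjusted p = 0.425). In BAT the difference was -0.04 (95% interval -0.23 to 0.16), and -0.08 without wild-type 1. *Pde4b*, a cAMP-specific phosphodiesterase, was not called in any tissue and differed by -0.16 in eWAT, -0.24 in iWAT, -0.16 in BAT and 0.13 in liver.

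*Prkar2b* showed small differences of opposite sign in eWAT and BAT. In eWAT it measured 9.34, 9.42, 9.21 and 9.36 in wild type and 10.02, 9.49, 9.52 and 9.77 in knockouts, apart by 0.37 (SE 0.12, adjusted p = 0.0732). In BAT it measured 10.55, 10.53, 10.59 and 10.58 in wild type and 10.34, 10.44, 10.25 and 10.39 in knockouts, apart by -0.21 (SE 0.08, adjusted p = 0.282). Neither passed the threshold. The eWAT difference was called after quantile normalization (0.53, adjusted p = 0.0210), with array weights (0.45, adjusted p = 0.0145) and without knockout 2 (0.44, adjusted p = 0.0295), and its p without adjustment in the methods' t-test was 0.0315. The other 12 of 16 alternatives did not call it, with a difference of 0.26 without knockout 1 (adjusted p = 0.134) and an adjusted p of up to 0.168 without wild-type 3.

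Counted over the 9 genes, the groups did not overlap for 4 in eWAT (*Adrb3*, *Pde3b*, *Prkar2b* and *Adra2a*, all higher), against 21.6% of all genes in either direction and 8.63% with the knockouts higher. They did not overlap for 3 in BAT (*Adrb1*, *Adrb3* and *Prkar2b*, all lower), against 7.23% in either direction and 3.92% with the knockouts lower. The median difference of the 9 was 0.37 in eWAT, 0.31 in iWAT, -0.16 in BAT and 0.03 in liver, beside 0.03, 0.02, 0.00 and 0.01 over all genes. In BAT 8 of the 9 were below 0. The 9 were chosen with earlier results of these data known, so these counts and medians are a description and not independent support.

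Whether the knockout effect differed between white and brown fat was tested on the difference between the depots of each mouse, since the labels carry the same mouse number across tissues. The contrast was chosen with earlier results of these data known, so its p-values are not independent support for the direction of *Adrb3*. For *Adrb3*, eWAT minus BAT was 0.45, -1.57, -0.51 and -0.50 in wild-type mice and 2.68, 1.50, 2.97 and 3.23 in knockouts. The effects differed by 3.13 (SE 0.43, 95% interval 2.18 to 4.09, adjusted p = 0.00825 by limma), where 6.93% of all genes were called, and all 4 knockouts lay above all wild-type mice (exact permutation p = 0.0286, two-sided, the smallest that 4 against 4 allow). For *Adrb1*, eWAT minus BAT was -2.89, -3.11, -2.45 and -3.03 in wild type and -1.59, -1.83, -1.37 and -0.99 in knockouts, a difference of 1.42 (SE 0.20, adjusted p = 0.00833). *Pde3b* differed by 1.09 (SE 0.21, adjusted p = 0.0161) and *Prkar2b* by 0.57 (SE 0.15, adjusted p = 0.0421), so that 4 of the 9 genes were called. For these 4, and for 13.1% of all genes, knockout and wild-type mice did not overlap. The other members differed by -0.01 to 0.48 and were not called. The *Adrb3* and *Adrb1* calls held without any 1 mouse. Without wild-type 1 the differences were 3.46 for *Adrb3* (adjusted p = 0.0123), 1.42 for *Adrb1* (adjusted p = 0.0220) and 1.14 for *Pde3b* (adjusted p = 0.0370). That of *Pde3b* was lost without wild-type 2 (adjusted p = 0.0540) or wild-type 4 (adjusted p = 0.0551). The *Prkar2b* call was lost without any 1 of 7 mice, each wild-type mouse and knockouts 1, 3 and 4 (adjusted p of up to 0.105), without the 3 muscle-rich mice (adjusted p = 0.0996) and with a trended and robust prior (adjusted p = 0.0575).

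For iWAT minus BAT, no gene of the array was called by limma (0%), and 9.58% had an unadjusted p below 0.05. *Adrb3* measured -0.04, -2.14, 0.22 and 0.04 in wild-type mice and 2.10, 1.39, 2.42 and 2.36 in knockouts, apart by 2.55 (SE 0.48, 95% interval 1.47 to 3.63, adjusted p = 0.200). The groups did not overlap for 5.12% of all genes and for *Adrb3* alone among the 9. Wild-type 2 stood below the rest, and the difference was 2.00 without it. With the 4 mice whose iWAT array was rich in B cell genes left out, it was 2.13 and passed the threshold (adjusted p = 0.0244, 2 mice per genotype). *Adrb1* differed by 0.86 (adjusted p = 0.310), *Pde3b* by 0.54 (adjusted p = 0.382) and *Prkar2b* by 0.52 (adjusted p = 0.518). Both contrasts share the BAT arrays.

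**Figure D3:**
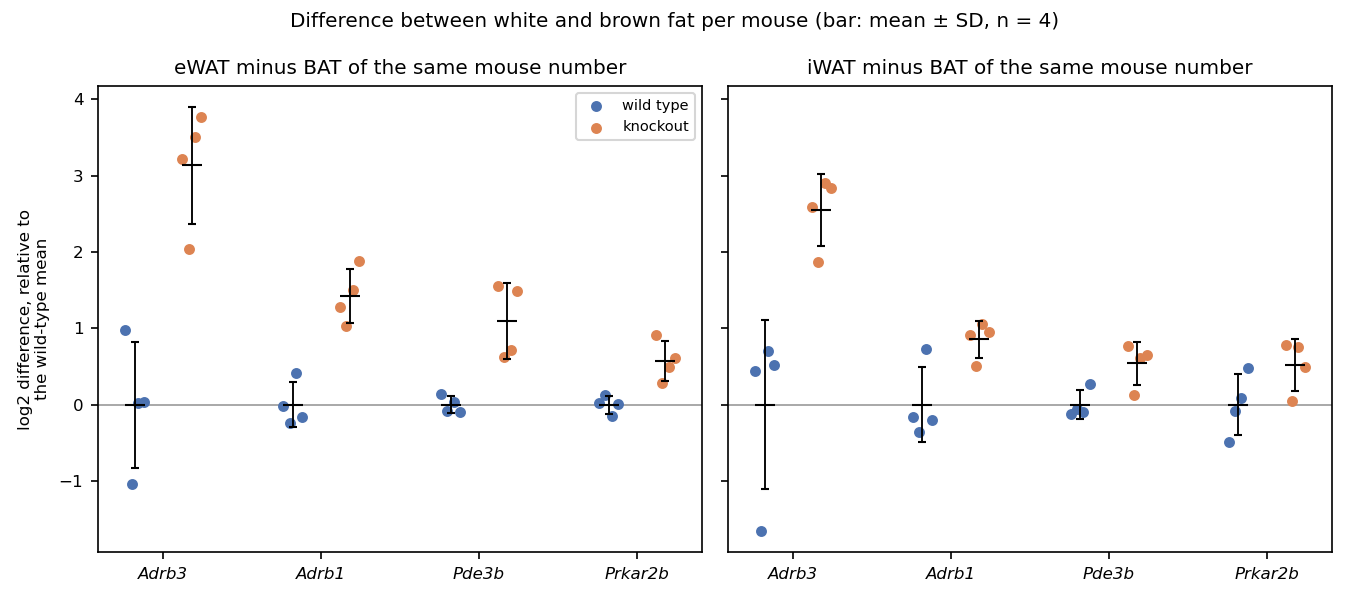
Log2 difference between white fat and BAT of the same mouse (vertical axis), relative to the wild-type mean, for eWAT (left) and iWAT (right). Points are mice and bars are mean and SD of 4 mice: for *Adrb3*, the knockouts lie above all wild-type mice in both panels, by 3.13 and 2.55 on average.

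The genes whose pattern was most like that of *Adrb3* were sought over the 24 fat arrays, after the mean of the wild-type arrays of the depot had been subtracted from each value. The 5 highest Pearson correlations were those of *C030006K11Rik* (0.95), *Mknk2*, a MAP kinase-interacting kinase (0.95), *Csad*, an enzyme of taurine synthesis (0.94), *Nat8l*, the N-acetylaspartate synthase (0.94), and *Nos3*, the endothelial nitric oxide synthase (0.94). All 5 had positive differences in eWAT and iWAT and negative ones in BAT, for example 1.09, 1.10 and -0.50 for *Nat8l*. The choice by correlation favours these signs, since the knockout differences enter r, so they are not a separate result. By limma none of the 5 was called in iWAT (adjusted p of 0.221 to 0.256) or BAT (0.104 to 0.553). In eWAT *Nos3* was not called either (adjusted p = 0.0502). Among the members, *Pde3b* had an r of 0.87, *Prkar2b* 0.78, *Adrb1* 0.67, *Adra2a* 0.54, *Adora1* 0.48, *Hcar2* 0.46, *Adra1a* 0.20 and *Pde4b* -0.23. These arrays share mice and genotype, and the coefficients are a description.

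Another 106 genes of the pathway were grouped by role. In eWAT, 27 of them were called, 14 higher and 13 lower, where 4.57% of all genes were called higher and 10.7% lower. The number ranged from 11 without wild-type 2 to 46 without knockout 2. It was 12 without wild-type 4, 14 without knockout 4, 16 without wild-type 3 and 18 without wild-type 1. Of 8 lipolysis effectors of PKA, 5 rose and none fell: *Lipe*, hormone-sensitive lipase (0.63), *Plin1*, the perilipin that PKA phosphorylates on the lipid droplet (0.65), *G0s2*, an inhibitor of adipose triglyceride lipase (0.69), *Pnpla2*, that lipase (0.44), and *Fabp4*, a fatty acid carrier (0.24). *Lipe*, *Plin1* and *Fabp4* were also on the adipocyte marker list, so the lists are not separate measurements.

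The other steps of the cascade moved in both directions in eWAT, with several families split. Of 16 G protein and adenylyl cyclase genes, 4 rose and 4 fell. *Gnai1*, an alpha subunit of Gi, measured 8.33 to 8.54 in wild type and 9.04 to 9.45 in knockouts and rose by 0.84 (adjusted p = 0.00720), whereas *Gnai2* and *Gnai3*, its closest relatives, fell by 0.48 and 0.60. Among the adenylyl cyclases, *Adcy6* rose by 0.87 (adjusted p = 0.00839), as did *Adcy5* (0.58) and *Adcy4* (0.53), while *Adcy7* fell by 1.22 (adjusted p = 0.0103) and *Adcy3* by 0.59. Of 15 genes for PKA subunits, inhibitors, anchors and the cAMP-activated exchange factors, 2 rose and 5 fell. The fallen ones included *Prkar2a* (-0.54) and *Prkar1a* (-0.26), regulatory subunits other than *Prkar2b*, the catalytic *Prkacb* (-0.38), and the inhibitors *Pkia* (-0.60) and *Pkib* (-0.46), while the anchoring proteins *Akap7* (0.73) and *Akap1* (0.32) rose.

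Of 12 Gs-coupled receptors, *Sctr*, the secretin receptor, rose from 3.47 ± 0.17 to 4.55 ± 0.39 (difference 1.08, adjusted p = 0.00981), and *Adora2b*, an adenosine receptor, fell by 0.56. *Hcar1* was the 1 called of 10 further receptors, most but not all of them Gi-coupled. Of 14 other phosphodiesterases, *Pde1a*, which calcium and calmodulin activate, rose by 0.83 (adjusted p = 0.0157) and *Pde8a*, a high-affinity cAMP phosphodiesterase, fell by 0.74 (adjusted p = 0.0155). Of 10 desensitization genes 2 fell, *Arrb2*, a beta-arrestin (-0.67), and *Rgs2*, a regulator of G protein signalling (-0.63). None of 17 cAMP-responsive transcripts was called in eWAT by limma, where 6 had an unadjusted p below 0.05, as did 29.8% of all genes. The marker lists given with *Adrb3* moved with these groups too, and their part in the groups was not tested.

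**Figure D4:**
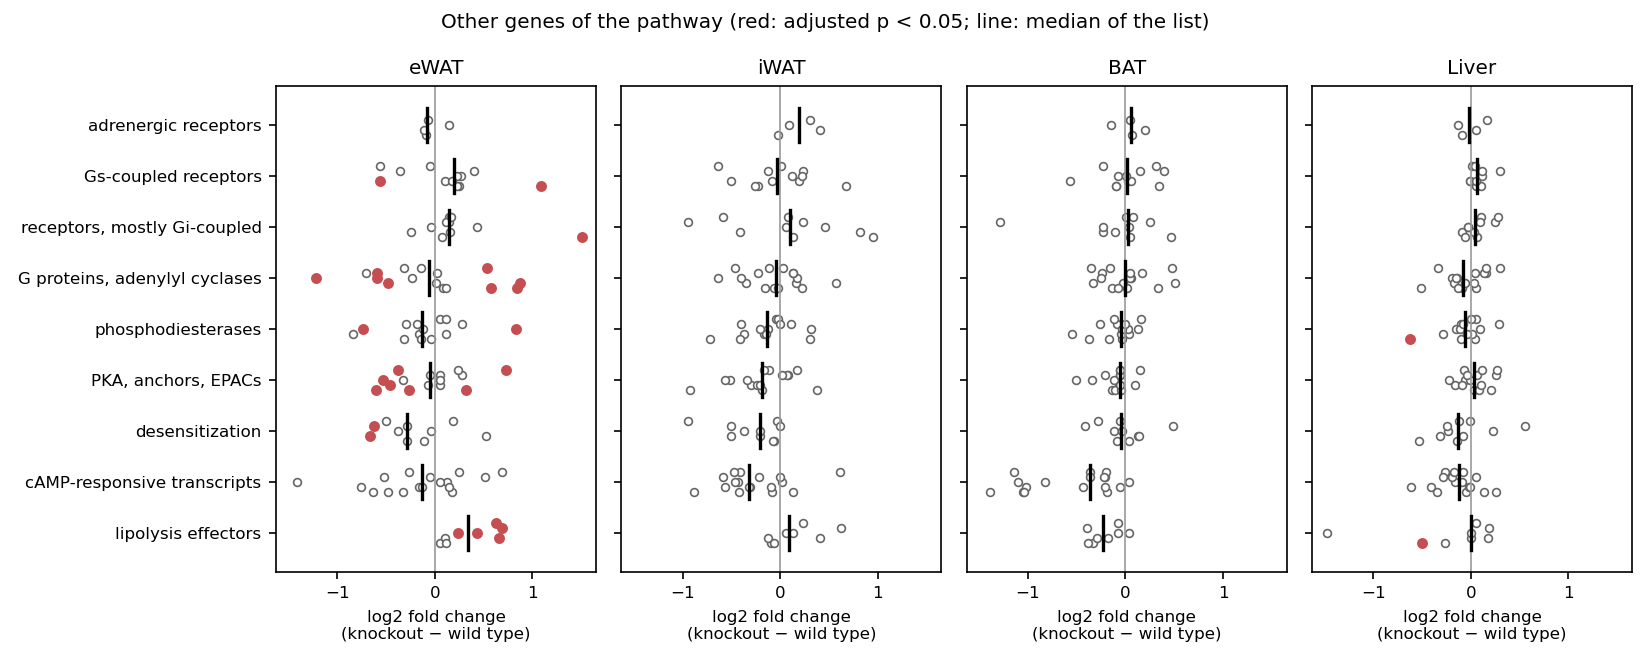
Log2 fold change (horizontal axis, knockout minus wild type) of 106 further pathway genes in 9 groups by role (vertical axis) and 4 tissues. Each point is a gene, red when called at an adjusted p below 0.05, and black lines are group medians: 27 genes were called in eWAT, 2 in liver and none in iWAT or BAT.

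In BAT none of the 106 was called by limma, and 26 had an unadjusted p below 0.05, beside 12.7% of all genes. The 3 with the smallest p were *Ptger3*, the Gi-coupled prostaglandin E2 receptor EP3, *Ppargc1a*, the coactivator PGC-1 alpha, and *Ptger2*, a Gs-coupled prostaglandin E2 receptor. *Ptger3* measured 6.32, 7.11, 7.01 and 7.05 in wild type and 5.89, 5.58, 5.87 and 5.03 in knockouts, a difference of -1.28 (SE 0.22, adjusted p = 0.0887). *Ppargc1a* measured 7.26, 8.22, 6.82 and 7.32 in wild type and 6.08, 6.02, 6.44 and 6.51 in knockouts, apart by -1.14 (SE 0.25, adjusted p = 0.130). *Ptger2* was dim and differed by 0.39 (adjusted p = 0.151).

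Of the 17 cAMP-responsive transcripts, which include transcription factors, cofactors, a phosphatase and a kinase that cAMP signals act through or induce, 16 had negative differences in BAT and 8 an unadjusted p below 0.05. Their median was -0.37, beside 0.00 over all genes, and none passed the adjusted threshold. The brown adipocyte list given above, lower in all knockout BAT arrays (exact permutation p = 0.0286), shares *Ucp1*, *Dio2* and *Ppargc1a* with these transcripts, and its part in them was not tested. *Dusp1*, a dual-specificity phosphatase, differed by -1.02 (adjusted p = 0.295), *Sik1*, a salt-inducible kinase, by -1.03 (adjusted p = 0.357) and *Nr4a3*, an orphan nuclear receptor, by -0.83 (adjusted p = 0.243). *Dio2*, the deiodinase that makes active thyroid hormone, measured 3.85, 4.96, 3.23 and 3.39 in wild type and 2.26, 2.73, 3.76 and 2.47 in knockouts, with knockout 3 inside the wild-type range (difference -1.05, adjusted p = 0.302). In iWAT 14 of the 17 were negative (median -0.32), in liver also 14 (median -0.12) and in eWAT 10 (median -0.13), so a majority below 0 was not limited to BAT. Of all 24646 genes, 12118 were negative in BAT, 11523 in iWAT, 11564 in liver and 10719 in eWAT.

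The promoters of *Ppargc1a* and *Dio2* are shown as those of BAT genes with a CRE or its core near the start. Of the 17 transcripts 14 had a promoter at hand, 10 of which held TGACG on either strand and 2, *Dusp1* and *Dio2*, the full element. Over all 32851 promoters these shares were 20.8% and 1.79%. The 17 were listed for their link to cAMP, so the counts say nothing about the differences in BAT. Capitals mark CGTCA, the core on the other strand, in *Ppargc1a* (chr5:51567676-51567975, - strand) and TGACGTCA in *Dio2* (chr12:90738989-90739288, - strand), both RefSeq, GRCm38.p6, printed along the direction of transcription.
Ppargc1a: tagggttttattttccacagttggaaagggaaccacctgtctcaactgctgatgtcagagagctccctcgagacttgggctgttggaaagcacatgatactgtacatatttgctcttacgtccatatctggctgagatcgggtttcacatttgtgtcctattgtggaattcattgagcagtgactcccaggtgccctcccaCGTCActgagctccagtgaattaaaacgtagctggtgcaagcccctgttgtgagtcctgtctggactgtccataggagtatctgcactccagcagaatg
Dio2: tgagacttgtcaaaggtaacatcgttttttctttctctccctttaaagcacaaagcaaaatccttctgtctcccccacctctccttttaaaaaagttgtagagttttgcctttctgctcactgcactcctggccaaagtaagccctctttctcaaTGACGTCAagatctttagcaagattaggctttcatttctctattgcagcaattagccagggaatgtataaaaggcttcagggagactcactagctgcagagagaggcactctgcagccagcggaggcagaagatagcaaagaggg
Relative to the start of the gene, the first capital letter lies at position -49 in *Ppargc1a*, -95 in *Dio2* and -90 in *Adrb1*.

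Of the 106 genes, none was called in iWAT by limma, and 17 had an unadjusted p below 0.05, beside 15.4% of all genes. The smallest p-values belonged to *Cnr1*, the Gi-coupled cannabinoid receptor (difference 0.82, SE 0.12), *Pkia*, a PKA inhibitor (-0.93, SE 0.19), and *Ptger3* (-0.95, SE 0.22), each with an adjusted p of 0.221. For *Cnr1* the wild-type arrays lay between 3.63 and 3.77 and the knockouts between 4.28 and 4.74. *Ptger3* was thus below the wild type in every knockout array of iWAT as well as of BAT, but in eWAT it differed by 0.11 (adjusted p = 0.809). In liver 2 of the 106 were called, both lower, where 0.499% of all genes were: *Pde2a*, a cGMP-stimulated phosphodiesterase, fell by 0.62 (adjusted p = 0.0279) and *Mgll*, monoacylglycerol lipase, by 0.50 (adjusted p = 0.0371). Endothelial markers were also lower in knockout liver, with 3 of 6 called and a list mean of 4.41 to 4.55 in wild type against 3.47 to 4.16 in knockouts, and their part in the *Pde2a* result was not tested.

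**Figure D5:**
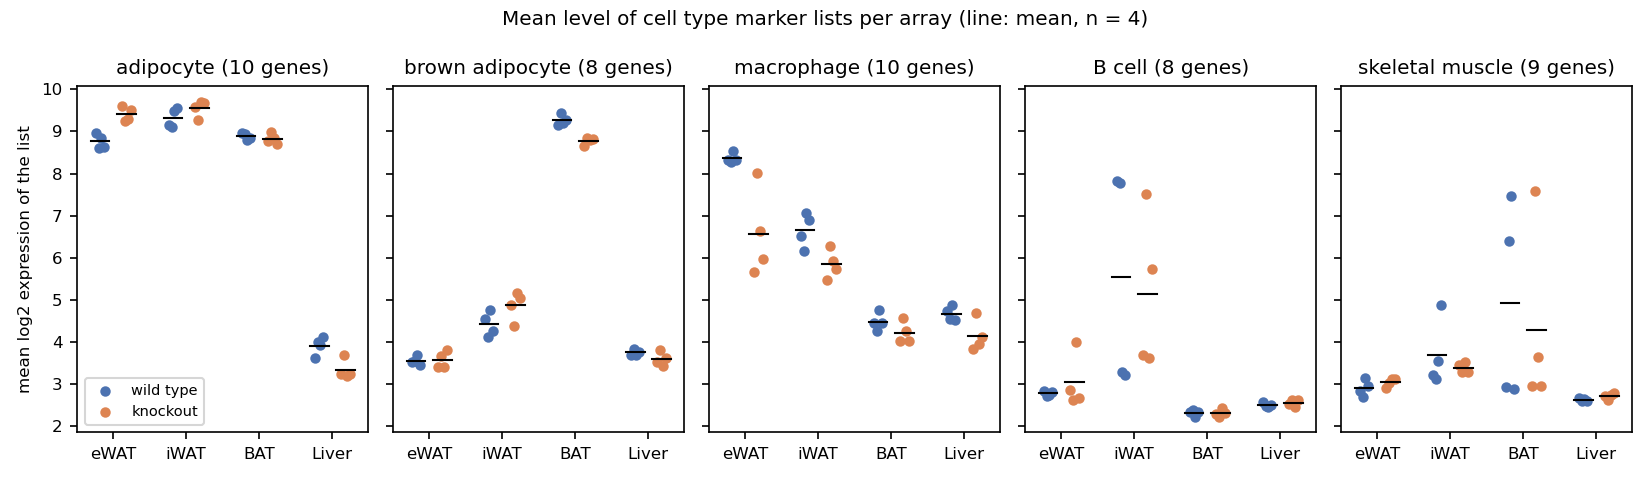
Mean log2 expression (vertical axis) of 5 lists of cell type markers in each array, by tissue (horizontal axis). Blue points are wild-type and orange points knockout arrays, and lines are group means: macrophage genes are lower in knockout eWAT, brown adipocyte genes lie lower in knockout BAT, and B cell and skeletal muscle genes split the iWAT and BAT arrays of both genotypes.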

How the data were processed

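The authors hybridized 100 ng of total RNA per sample to Affymetrix Mouse Gene 2.1 ST arrays and deposited log2 expression values, normalized between the arrays of a tissue, in 1 table per tissue. The software and the method of normalization are not given in the sources used here. The identifiers of 840 genes held a decimal point, which was taken as a sign that values of several probe sets had been averaged. Entries with a blank or numeric name, 1 or 2 per table, were left out, which left 24646 genes. Array medians ranged from 2.82 to 3.73, and arrays of a tissue correlated across genes with r of 0.939 to 0.995; the number of arrays limits the precision.

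The titles of the knockout liver samples name both genotypes, and the other labels, which say knockout, were used. Genotypes were compared per tissue with limma 3.58.1 in R 4.3.3, with Benjamini-Hochberg adjustment over all genes and a threshold of 0.05. White and brown fat were compared on differences between arrays of the same mouse number. A gene was called dim where its mean lay below the table median. The members, the lists and the contrast of white with brown fat were chosen with earlier results of these data known. The rule for further names took up to 8 called pathway genes per tissue with groups apart, by size, or the 3 smallest p, the 5 genes most like *Adrb3* and marker genes, of which 1 gene is not reported here; other names were chosen after their values were seen. *Hcar1*, *Grk2* and *Grk3* were found under older symbols. The alternatives were other scalings, a filter on dim genes, other priors, array weights, a block for the replicate number, the t-test of the study's methods and each array left out. Leaving out arrays with RNA of other tissues, and the same alternatives for *Adrb1*, *Pde3b* and *Prkar2b* between depots, were added after seeing the data. The procedure was tested on simulated data. Promoters were those of RefSeq (GRCm38.p6). Figures were drawn with matplotlib 3.10.9.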

Additional observations from a re-analysis of the deposited data

Results flagged for a closer look

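*Pde3b* in the iWAT of knockout 2 measured 8.89, far from the other 3 knockouts at 9.26 to 9.32. It was the 1 array that stood apart in this way among 72 groups of 4 tested, and chance gives about 1 in 20 groups. The same array was rich in B cell genes, and the part of that in the value was not tested.

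The knockout effect differed between eWAT and BAT, by a test of the difference itself, for *Adrb3* (3.13), *Adrb1* (1.42), *Pde3b* (1.09) and *Prkar2b* (0.57), each given as eWAT minus BAT and with all 4 knockout mice above all 4 wild-type mice. The effects behind them were 2.24 and -0.89 for *Adrb3*, and 0.53 and -0.90 for *Adrb1*, in eWAT and BAT. These are the tests already given, on a contrast chosen with earlier results of these data known, and not independent support.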

How the results depend on the processing

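Over 585 alternatives for the 36 differences of the 9 genes, 560 kept their side of the threshold, 11 lost a call and 14 gained one. No called difference changed sign, but uncalled ones did in 29 alternatives (13 of the 36 differences, each within 0.16 of 0), as *Adrb1* in iWAT, -0.04, did without wild-type 3 (0.16). With the methods' t-test and adjustment, 0 members were called in liver and 0 in eWAT, where *Adrb3* had an adjusted p of 0.0644 and *Pde3b* of 0.0650, and 0 of the 106 pathway genes in either; without adjustment the members called were 4 (eWAT), 2 (iWAT) and 3 (BAT), and the pathway genes 15 in liver, 44 in eWAT, 14 in iWAT and 17 in BAT, beside 2901, 6798, 3167 and 2803 of all genes. Quantile normalization left 1 pathway gene called in liver, and array weights gave 42 in eWAT. Without the B cell-rich arrays, 1 member and 6 pathway genes were called in iWAT, and *Adrb3* in iWAT minus BAT was 2.13. Leaving out 1 array at a time, the members called numbered 0 to 1 in liver, 2 to 3 in eWAT, 0 in iWAT and 0 to 1 in BAT, and the pathway genes 0 to 2 (liver), 11 to 46 (eWAT), 0 to 1 (iWAT) and 0 to 1 (BAT). *Adrb3* then lay between 2.79 and 3.50 in eWAT minus BAT and between 2.00 and 2.78 in iWAT minus BAT. The cause of these changes was not tested.

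Deviations of wild-type and knockout arrays of the same number correlated above 0.1 for 3 of 4 pairs in iWAT and BAT and 1 of 4 in liver and eWAT, so in no tissue for all, and the numbers were not taken as pairs. Between depots of 1 mouse they did so for 0 of 4 wild-type and 2 of 4 knockout mice (eWAT and BAT) and for 0 and 1 (iWAT and BAT); that pairing rests on the mouse numbers of the labels. With the replicate block, 0 members and 1 pathway gene were called in liver, where *Adrb3* had an adjusted p of 0.0710, and 3 members in eWAT, where *Adrb1* was added (adjusted p = 0.0399). Between depots, the fit with no replicate block gave an adjusted p of 0.00214 for *Adrb3* in eWAT minus BAT and of 0.111 in iWAT minus BAT.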
